A study of Homo sapiens with 6 samples.

Results

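The LINC-named non-coding RNAs are genes listed in these data under a symbol of LINC followed by a number. That name was given to long intergenic non-coding RNAs that had no better name at the time. The count tables listed 614 such symbols among 56638 symbols in all. A LINC RNA was kept when its reads summed to at least 60 over the 6 libraries, which left 80. They were chosen by their total read count alone, so their levels are given as a description. The fold change between the siRNAs was no part of that rule, although the rule was set with earlier results of these data known. Of the other 534 symbols, 298 had 0 reads in every library and 236 had fewer than 60 reads in all. Just inside the minimum lay LINC00514 with 61 reads, LINC01125 with 64 and LINC00422 with 67, and just outside it lay LINC00444 with 59, LINC00324 with 58 and LINC00933 with 58. For 75 of the 80, each group alone held at least 30 reads. The others were LINC00514 in the lncSLCC1 siRNA libraries and LINC00337, LINC00422, LINC01152 and LINC01125 in the control siRNA libraries.

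The study sequenced RNA of DLD-1, an established human colorectal cancer cell line, at passages 16 to 19. In the 3 lncSLCC1 siRNA libraries the cells had received a small interfering RNA that targets the long non-coding RNA lncSLCC1 (RP11-400N13.2 in the tables), and in the 3 control siRNA libraries they had received a control siRNA. The labels name neither the dose and time of transfection nor the number of siRNAs and their sequences. They also do not say whether the replicate libraries are separate cultures. The p-values therefore reflect library-to-library spread that may be purely technical, and 1 cell line stands for colorectal cancer. RNA per cell and the number of cells holding an RNA cannot be told apart in such bulk samples.

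Long intergenic non-coding RNAs are transcribed by RNA polymerase II, and most are capped, spliced and polyadenylated, but they carry no long open reading frame. They act in the nucleus on transcription and chromatin or in the cytoplasm as binding platforms for proteins and other RNAs, and many start beside a protein-coding gene on the opposite strand. Most are present at far lower levels than messenger RNAs, and a share of those once named LINC have since been found to encode small proteins and been renamed.

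Gene reads numbered 12572277 to 15262872 per library with lncSLCC1 siRNA and 14873343 to 15568075 with control siRNA, and each of the 80 LINC RNAs had reads in each library. The targeted RNA, RP11-400N13.2, was at 1.66, 2.62 and 2.10 CPM, reads scaled to a common library size, in the lncSLCC1 siRNA libraries, against 5.20, 9.31 and 9.04 CPM in the control siRNA libraries, a log2 fold change of -1.88 (SE 0.264, edgeR adjusted p = 0.0027). The lncSLCC1 siRNA libraries lay close together, with a chi-square per gene of 1.79 to 1.90 between pairs, while pairs of control siRNA libraries gave 5.46 to 28.0, the highest with control siRNA library 1. The share of reads from ribosomal protein genes was 3.25% to 3.40% with lncSLCC1 siRNA and 4.49%, 3.80% and 3.34% in control siRNA libraries 1, 2 and 3. Of 11 colorectal epithelial markers, 10 exceeded 1 CPM, with summed levels of 6041 to 6363 CPM with lncSLCC1 siRNA and 5923 to 7332 CPM with control siRNA, and CDX1 averaged 0.206 CPM with lncSLCC1 siRNA and 0.270 CPM with control siRNA. Of 11 markers of other cell types, 2 exceeded 1 CPM in the mean, the lists summed to 4.85 to 5.04 CPM with lncSLCC1 siRNA and 3.58 to 4.84 CPM with control siRNA, and PECAM1 had 0 reads.

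Before the values, 4 start regions are shown, those of the 2 LINC RNAs that start back to back with a protein-coding gene and rose with lncSLCC1 siRNA, LINC00337 and LINC00205, and those of the 2 LINC RNAs that fell, LINC00152 and LINC00941. Each run holds 250 bases before and 50 after the annotated start, 5′ to 3′ on the strand of the LINC RNA, from RefSeq on GRCh38.p14, on chromosomes 1, 21, 2 and 12 in the order printed, all on the plus strand. Capitals mark 4 short motifs searched on both strands: the AP-1 site (TGAGTCA, reverse TGACTCA), the E-box (CACGTG), the GC box (GGGCGG, reverse CCGCCC) and the core of the site of the aryl hydrocarbon receptor, AHR (GCGTG, reverse CACGC).
LINC00337: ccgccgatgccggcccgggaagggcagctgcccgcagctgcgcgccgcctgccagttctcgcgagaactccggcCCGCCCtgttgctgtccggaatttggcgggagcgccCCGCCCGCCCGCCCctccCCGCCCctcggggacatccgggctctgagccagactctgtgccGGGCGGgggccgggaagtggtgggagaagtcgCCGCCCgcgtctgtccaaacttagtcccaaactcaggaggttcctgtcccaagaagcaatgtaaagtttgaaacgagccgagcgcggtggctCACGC
LINC00205: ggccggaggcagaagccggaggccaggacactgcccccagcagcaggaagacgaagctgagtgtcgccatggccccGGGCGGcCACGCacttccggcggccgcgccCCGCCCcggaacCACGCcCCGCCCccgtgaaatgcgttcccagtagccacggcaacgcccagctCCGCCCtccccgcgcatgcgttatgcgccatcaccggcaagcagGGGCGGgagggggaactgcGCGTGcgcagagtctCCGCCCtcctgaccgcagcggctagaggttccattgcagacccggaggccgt
LINC00152: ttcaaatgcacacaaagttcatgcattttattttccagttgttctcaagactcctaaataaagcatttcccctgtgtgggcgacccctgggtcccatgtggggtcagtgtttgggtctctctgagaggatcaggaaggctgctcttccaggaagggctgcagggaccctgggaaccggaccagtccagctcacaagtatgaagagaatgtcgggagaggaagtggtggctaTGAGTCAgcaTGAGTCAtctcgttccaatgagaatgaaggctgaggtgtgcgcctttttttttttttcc
LINC00941: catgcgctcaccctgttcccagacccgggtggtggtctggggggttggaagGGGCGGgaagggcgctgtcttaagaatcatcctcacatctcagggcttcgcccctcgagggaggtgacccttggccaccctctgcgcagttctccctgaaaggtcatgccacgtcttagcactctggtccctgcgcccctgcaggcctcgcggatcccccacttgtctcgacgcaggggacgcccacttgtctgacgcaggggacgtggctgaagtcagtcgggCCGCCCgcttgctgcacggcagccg

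The 4 regions differed in composition. The LINC00337 region was 69.7% G and C, with 7 GC boxes and 1 AHR core, and the LINC00205 region was 72.3% G and C, with 6 GC boxes and 3 AHR cores. The LINC00941 region was 66% G and C with 2 GC boxes. LINC00152 started in a region of 49.7% G and C that held no GC box and held 2 AP-1 sites, which begin 19 and 9 bases before the start. LINC00638 and LINC00910, which also rose and are not shown, each had a region of 55% G and C with 0 AHR cores. LINC00638 held 1 GC box there and LINC00910 0. The other 3 that rose had no promoter entry, so the shown regions do not stand for all that rose. Across 35116 RefSeq promoters of the same length, 4.95% held an AP-1 site, 7.26% an E-box, 45% a GC box and 36.5% an AHR core. Of the 64 LINC RNAs with a promoter entry, 5 (7.81%) held an AP-1 site, 4 (6.25%) an E-box, 31 (48.4%) a GC box and 26 (40.6%) an AHR core, with a mean G and C content of 61% against 57.5% over all promoters. A match describes the letters of the window and is not a bound site.

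Of the 80 LINC RNAs, 7 rose and 2 fell with lncSLCC1 siRNA at an adjusted p under 0.05, and 71 did not pass (edgeR's quasi-likelihood test, Benjamini-Hochberg adjusted over 15242 genes). Those that rose were LINC00337, LINC00638, LINC00910, LINC00319, LINC00174, LINC00205 and LINC00858, and those that fell were LINC00152 and LINC00941. The call rate of 8.75% higher and 2.5% lower stood beside a background of 6.46% higher and 7.39% lower, 13.8% in all, over all genes tested. The median log2 fold change was 0.24, with quartiles of -0.14 and 0.45 and a range of -0.85 to 1.76, against a median of 0.0072 over all genes. It was above 0 for 52 LINC RNAs (65%) and below 0 for 28, against 51% above 0 over all genes. The groups did not overlap for 23 that were higher (28.75%) and 3 that were lower (3.75%) with lncSLCC1 siRNA, against 19.4% higher and 19.6% lower over all genes, 39% together. Over the 75 with at least 30 reads in each group, the median was 0.21, and 6 rose and 2 fell.

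**Figure D1:**
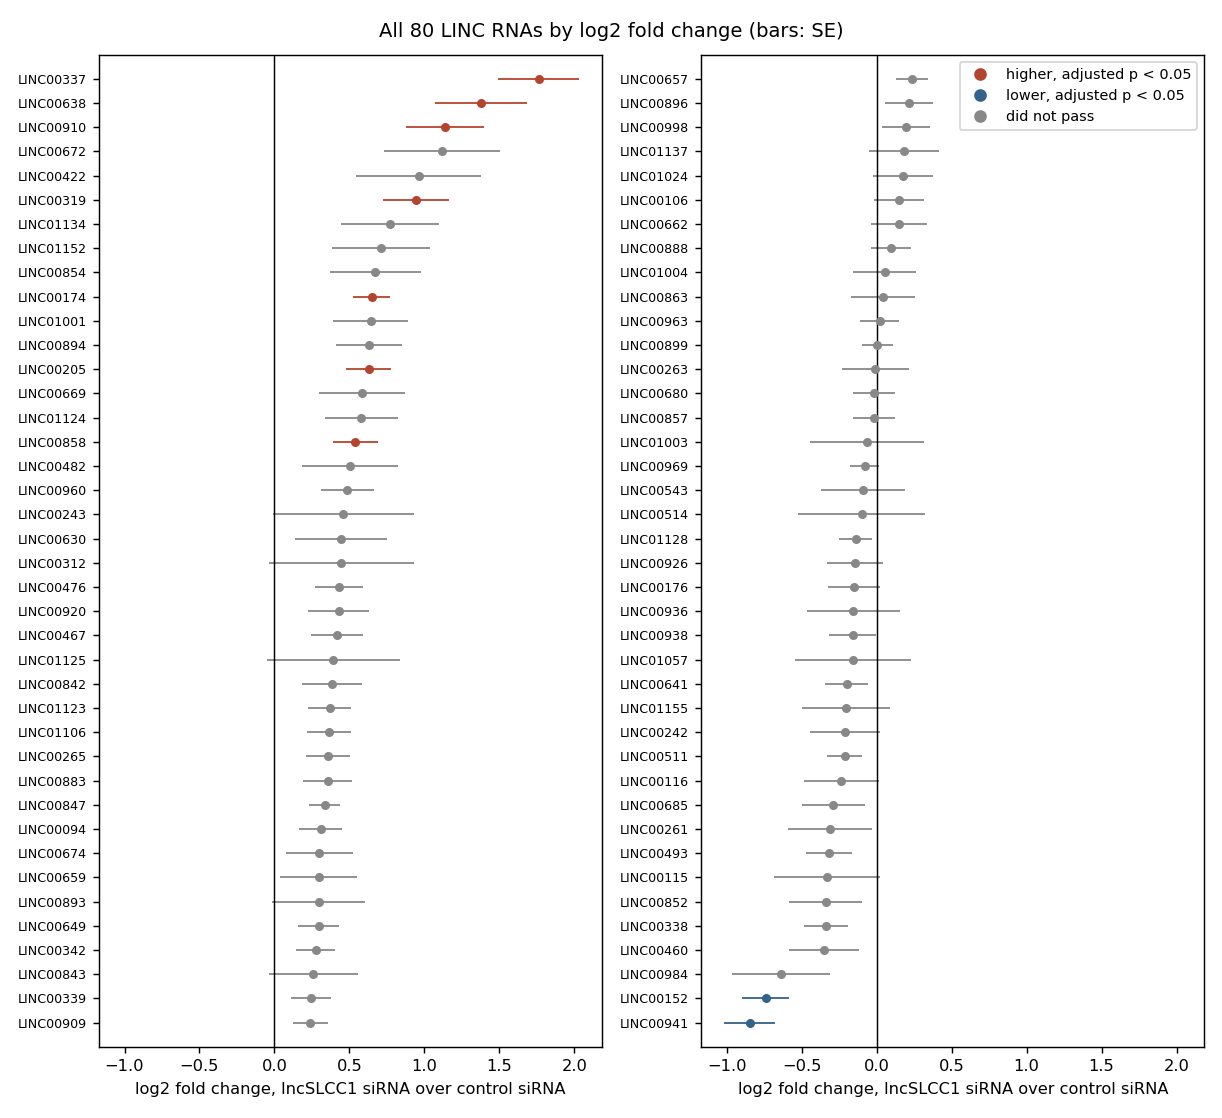
Log2 fold change of lncSLCC1 siRNA over control siRNA for each of the 80 LINC RNAs, ordered from highest to lowest down both panels. Points are edgeR estimates and bars are standard errors. Values run from 1.76 for LINC00337 to -0.85 for LINC00941, 52 lie above 0, and the 7 that rose are in red and the 2 that fell in blue.

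The calls rested on libraries to an unequal degree. All 9 kept their sign in each of the 6 fits that leave out 1 library, and LINC00337 kept its call in each (largest edgeR adjusted p 0.0281). LINC00337 was also the 1 called LINC RNA with fewer than 30 reads in a group, the control siRNA libraries. Leaving out lncSLCC1 siRNA library 2 or lncSLCC1 siRNA library 3 left LINC00337 as the only LINC RNA called, 1 higher and 0 lower. Leaving out lncSLCC1 siRNA library 1 left 1 higher and 2 lower, and leaving out control siRNA library 2 left 3 higher and 1 lower. Without control siRNA library 1, 17 were higher and 3 lower, and without control siRNA library 3, 10 were higher and 4 lower. Gained without control siRNA library 1 were, among others, LINC00094, LINC00467, LINC00641, LINC00672 and LINC00847, and without control siRNA library 3 LINC00338, LINC00493 and LINC00657. The counts over all genes moved in the same way, to 2112 higher and 2431 lower without control siRNA library 1, 1614 and 2088 without control siRNA library 3, and 213 to 272 higher and 244 to 352 lower in the other fits, against 984 and 1126 with all libraries. The largest adjusted p in these fits was 0.17 for LINC00858, 0.117 for LINC00205, 0.0982 for LINC00319, 0.0961 for LINC00910, 0.0876 for LINC00638, 0.0862 for LINC00152, 0.0749 for LINC00941 and 0.0599 for LINC00174.

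LINC00337 showed the largest rise. Its control siRNA libraries together held fewer than 30 reads, so it met the minimum of 60 through the lncSLCC1 siRNA libraries. It was covered by 30, 26 and 24 reads in the lncSLCC1 siRNA libraries, against 8, 9 and 7 in the control siRNA libraries, or 1.99, 1.66 and 1.87 CPM with lncSLCC1 siRNA and 0.570, 0.586 and 0.455 CPM with control siRNA. The groups lie far apart, with means of 1.84 ± 0.168 CPM with lncSLCC1 siRNA and 0.537 ± 0.0710 CPM with control siRNA (SD, n = 3 each). The log2 fold change was 1.76 (SE 0.271, 95% interval 1.16 to 2.37, edgeR adjusted p = 0.00398), a 3.39-fold higher level. RefSeq now names it ICMT-DT, a divergent transcript of ICMT on chromosome 1, the gene of the enzyme that methylates the prenylated end of RAS and other proteins. ICMT itself was at 144 ± 1.92 CPM with lncSLCC1 siRNA and 143 ± 5.49 CPM with control siRNA (log2 fold change 0.01, SE 0.0730, edgeR adjusted p = 0.956).

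LINC00638, on chromosome 14 and now named VESTAR, was at 2.52, 1.60 and 1.64 CPM in the lncSLCC1 siRNA libraries, against 0.570, 0.781 and 0.846 CPM in the control siRNA libraries. All 3 lncSLCC1 siRNA libraries were above all controls, library 1 well above the other two. The log2 fold change was 1.38 (SE 0.304, 95% interval 0.70 to 2.06, edgeR adjusted p = 0.018), a 2.60-fold higher level. Its neighbours ZBTB42, a zinc finger gene, and CEP170B, a centrosomal protein gene, had log2 fold changes of 0.17 (SE 0.129) and -0.15 (SE 0.0729), and neither passed.

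LINC00910, on chromosome 17, was at 2.39, 2.17 and 3.04 CPM in the lncSLCC1 siRNA libraries, against 0.854, 1.11 and 1.43 CPM in the control siRNA libraries. The groups did not overlap, and the lowest lncSLCC1 siRNA value was well above the highest control. The log2 fold change was 1.14 (SE 0.26, 95% interval 0.56 to 1.72, edgeR adjusted p = 0.0204). LINC00854, another LINC RNA that lies beside it and is now annotated as the protein-coding gene CCDC200, was at 1.93, 1.72 and 1.48 CPM in the lncSLCC1 siRNA libraries, against 1.42, 1.17 and 0.651 CPM in the control siRNA libraries. These groups also did not overlap, but the change did not pass (0.67, SE 0.301, edgeR adjusted p = 0.157).

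LINC00319 and LINC00205, both on chromosome 21, rose. LINC00319 was at 2.99, 2.55 and 2.57 CPM in the lncSLCC1 siRNA libraries, against 1.28, 1.69 and 1.24 CPM in the control siRNA libraries, with a log2 fold change of 0.94 (SE 0.219, 95% interval 0.45 to 1.43, edgeR adjusted p = 0.0221). It overlaps HSF2BP, a gene of meiotic recombination, whose log2 fold change was 0.21 (SE 0.256, edgeR adjusted p = 0.64), and without a stated strand setting reads of the overlap cannot be told apart. LINC00205 was at 9.50, 8.68 and 7.40 CPM in the lncSLCC1 siRNA libraries, against 5.05, 5.40 and 6.12 CPM in the control siRNA libraries, with a log2 fold change of 0.63 (SE 0.15, 95% interval 0.29 to 0.96, edgeR adjusted p = 0.0249). In both, each lncSLCC1 siRNA library was above each control siRNA library.

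The genes beside these LINC RNAs did not share 1 pattern. POFUT2, which starts opposite LINC00205 and encodes an enzyme that adds fucose to secreted proteins, was at 62.8 ± 2.97 CPM with lncSLCC1 siRNA and 64.8 ± 4.41 CPM with control siRNA (log2 fold change -0.05, SE 0.0893, edgeR adjusted p = 0.762). COL18A1, the gene of collagen XVIII on the other side of LINC00205, rose. It was at 4.58, 4.79 and 4.68 CPM in the lncSLCC1 siRNA libraries, against 2.99, 2.02 and 0.846 CPM in the control siRNA libraries (log2 fold change 1.28, SE 0.316, edgeR adjusted p = 0.0282). SIK1, a kinase gene beside LINC00319, was at 24.3 ± 0.888 CPM with lncSLCC1 siRNA and 29.8 ± 0.751 CPM with control siRNA, and its log2 fold change of -0.29 (SE 0.0950) did not pass at an edgeR adjusted p of 0.066.

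LINC00174, on chromosome 7, was the most abundant LINC RNA that rose. It was at 15.9, 15.5 and 15.4 CPM in the lncSLCC1 siRNA libraries, against 10.5, 10.7 and 8.65 CPM in the control siRNA libraries, with means of 15.6 ± 0.237 CPM with lncSLCC1 siRNA and 9.95 ± 1.13 CPM with control siRNA (SD, n = 3 each). The lncSLCC1 siRNA libraries were nearly level and lay far above the controls. The log2 fold change was 0.65 (SE 0.123, 95% interval 0.37 to 0.92, edgeR adjusted p = 0.0099). LINC00858, on chromosome 10, had the smallest rise, at 4.78, 5.30 and 4.99 CPM in the lncSLCC1 siRNA libraries, against 3.27, 3.58 and 3.51 CPM in the control siRNA libraries (log2 fold change 0.54, SE 0.15, edgeR adjusted p = 0.0415). Its groups were separate too, but the call was lost with DESeq2 (adjusted p = 0.0987) and with no filter on low counts (adjusted p = 0.0542).

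LINC00152 and LINC00941 fell, and both are on a hand-made list of LINC RNAs studied in cancer. LINC00152, now named CYTOR, has been studied in gastric and colorectal cancer. It was at 17.5, 14.0 and 13 CPM in the lncSLCC1 siRNA libraries, against 29.7, 23.6 and 21.4 CPM in the control siRNA libraries, all lncSLCC1 siRNA libraries lying below all controls. Means were 14.9 ± 2.37 CPM with lncSLCC1 siRNA and 24.9 ± 4.29 CPM with control siRNA (SD, n = 3 each), so that 59.9% of the control level remained (log2 fold change -0.74, SE 0.157, 95% interval -1.09 to -0.39, edgeR adjusted p = 0.0155). MIR4435-1HG, a near-identical copy elsewhere on chromosome 2 that RefSeq now names MIR4435-2HG, was at 21.5, 19.6 and 20.6 CPM in the lncSLCC1 siRNA libraries, against 33.7, 29.3 and 24.1 CPM in the control siRNA libraries (log2 fold change -0.50, SE 0.132, edgeR adjusted p = 0.0364). Reads that the copies share are lost or may be given to the wrong copy, so the change of each taken singly is uncertain.

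LINC00941, on chromosome 12 and studied in colorectal cancer invasion, had the largest fall. It was at 2.92, 2.43 and 2.42 CPM in the lncSLCC1 siRNA libraries, against 5.05, 4.36 and 4.62 CPM in the control siRNA libraries. Each group was tight and the groups lay well apart, at 2.59 ± 0.290 CPM with lncSLCC1 siRNA and 4.68 ± 0.351 CPM with control siRNA (SD, n = 3 each). The level was 55.6% of that in the controls (log2 fold change -0.85, SE 0.169, 95% interval -1.23 to -0.47, edgeR adjusted p = 0.0123). Of its neighbours, CAPRIN2, an RNA-binding protein gene, had a log2 fold change of -0.01 (SE 0.103), and TSPAN11, a tetraspanin gene, had 0.97 (SE 0.302, edgeR adjusted p = 0.0585), and neither passed.

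**Figure D2:**
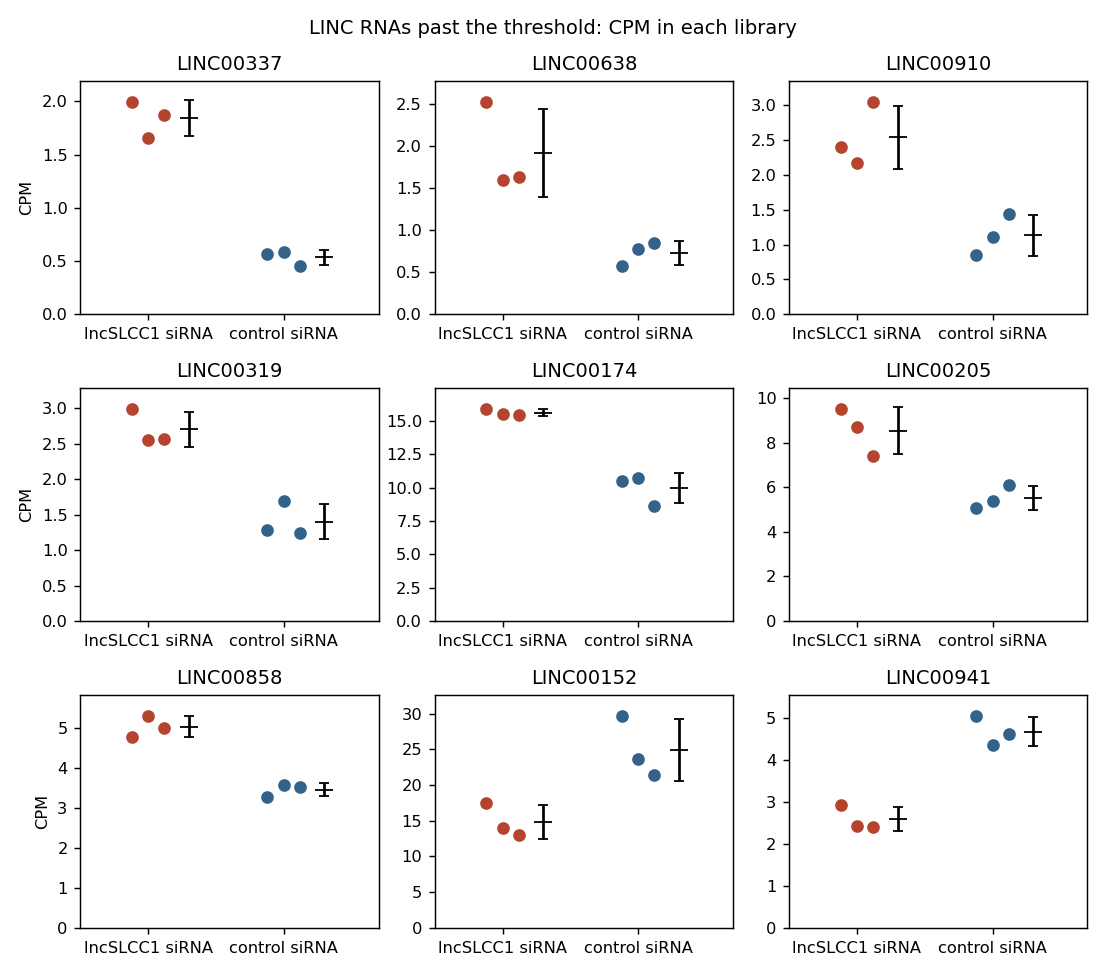
CPM of the 9 LINC RNAs with an adjusted p under 0.05 in each library, lncSLCC1 siRNA at left and control siRNA at right, with each axis starting at 0. Points are libraries 1, 2 and 3 from left to right, and the bar beside them is the mean with its SD. In every panel the groups are separate, as in LINC00941 at 2.42 to 2.92 CPM with lncSLCC1 siRNA and 4.36 to 5.05 CPM with control siRNA.

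The list of LINC RNAs studied in cancer was a hand-made selection of 20 names. Of these, 18 were in the tables and 9 had at least 60 reads. None of the LINC RNAs that rose is on the list, and names left off it may also have been studied in cancer. The counts therefore depend on the choice of names. Of these 9, 0 rose and 2 fell, LINC00152 and LINC00941, by edgeR, by DESeq2 and by limma-voom, and at an unadjusted p under 0.05 edgeR gave 1 higher and 2 lower. Over all genes tested, 6.46% were called higher and 7.39% lower. The median log2 fold change of the 9 was -0.21, against 0.0072 over all genes. LINC00511 was at 31.7, 30.3 and 30.5 CPM in the lncSLCC1 siRNA libraries, against 41.7, 34.3 and 31.4 CPM in the control siRNA libraries (log2 fold change -0.21, SE 0.118, edgeR adjusted p = 0.243). LINC00460 was at 3.79, 3.64 and 3.66 CPM in the lncSLCC1 siRNA libraries, against 6.62, 3.90 and 3.71 CPM in the control siRNA libraries (-0.35, SE 0.232, edgeR adjusted p = 0.329). In both, every lncSLCC1 siRNA value was near the lowest control, and control siRNA library 1, which also stood apart in its ribosomal protein share, was the highest. LINC00467 went the other way without passing, at 8.24, 7.09 and 8.34 CPM in the lncSLCC1 siRNA libraries, against 7.19, 5.79 and 4.75 CPM in the control siRNA libraries (0.42, SE 0.171, edgeR adjusted p = 0.128). The others were LINC00659 at 0.29 (SE 0.257), LINC00662 at 0.15 (SE 0.188), LINC00963 at 0.02 (SE 0.13) and LINC00261, which lies beside the gene of the endoderm factor FOXA2, at -0.31 (SE 0.281).

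LINC00657, known as NORAD, binds PUMILIO proteins and is needed for genome stability. It was by far the most abundant LINC RNA, at a mean of 390.1 CPM over the 6 libraries and 73.1 CPM per kilobase of the GENCODE transcript used for its length. It was at 409, 434 and 423 CPM in the lncSLCC1 siRNA libraries, against 297, 373 and 404 CPM in the control siRNA libraries. The groups touch closely without overlapping, and control siRNA library 1 was the lowest. Means were 422 ± 12.1 CPM with lncSLCC1 siRNA and 358 ± 55.0 CPM with control siRNA (SD, n = 3 each), and the log2 fold change of 0.24 (SE 0.108, 95% interval 0 to 0.48) did not pass (edgeR adjusted p = 0.164). It was 0.12 without control siRNA library 1, passed at 0.33 without control siRNA library 3 (edgeR adjusted p = 0.0381), and passed at 0.12 with offsets for G and C content and length (edgeR adjusted p = 0.0465). It held 41.9% to 43.5% of all LINC RNA reads in the lncSLCC1 siRNA libraries and 33.7% to 44.1% in the control siRNA libraries. The p53-linked LINC01021 had 0 reads in every library.

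Because of that share, the summed level of the 80 LINC RNAs was given with and without LINC00657. It was 986 ± 10.3 CPM with lncSLCC1 siRNA and 901 ± 17.7 CPM with control siRNA (SD, n = 3 each). Without LINC00657 it was 564 ± 2.45 CPM with lncSLCC1 siRNA and 542 ± 37.5 CPM with control siRNA, a difference smaller than the spread between the controls. As a share of gene reads, the 80 together took 0.0996%, 0.102% and 0.101% in the lncSLCC1 siRNA libraries and 0.0833%, 0.0892% and 0.0910% in the control siRNA libraries.

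After LINC00657, levels in CPM ran down to 40.4 for LINC00969 (now MIR570HG, a microRNA host gene), 33.3 for LINC00511, 30.3 for LINC00493, 27.7 for LINC00899, 27.0 for LINC00641, 19.9 for LINC00152, 19.1 for LINC00847, 17.4 for LINC00094 and 17.1 for LINC00998. Levels next to each other in this order often lay within the spread between libraries. LINC00899, for example, was at 27.8 ± 1.63 CPM with lncSLCC1 siRNA and 27.7 ± 2.09 CPM with control siRNA, and LINC00641 was at 25.1 ± 1.68 CPM with lncSLCC1 siRNA and 28.8 ± 5.57 CPM with control siRNA. Per kilobase of the GENCODE transcript used for length, which 78 of the 80 have, the order changed. It depends on the lengths used, such as 493 nt for LINC00899, 465 nt for LINC00339 and 7512 nt for LINC00152. The highest were LINC00657 at 73.1 CPM, LINC00899 at 56.2, LINC00493 at 45.2, LINC00998 at 16.0, LINC00641 at 15.3 and LINC00339 at 13.9, and LINC00152 stood at 2.65. Most of the list was far below these levels, with a median of 4.03 CPM and a lowest mean of 0.684 CPM.

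Calls were spread over the range of levels. Of the 36 LINC RNAs with a mean under 3 CPM 4 were called, of the 25 between 3 and 10 CPM 3, and of the 19 over 10 CPM 2. These counts are near the 13.8% called over all genes tested, at any level. Standard errors of the log2 fold change ran from 0.0942 for LINC00969 to 0.483 for LINC00312, and 43 exceeded 0.2. LINC00672 had the largest change that did not pass, at 2.19, 1.02 and 1.64 CPM in the lncSLCC1 siRNA libraries, against 1.07, 0.456 and 0.716 CPM in the control siRNA libraries. The groups overlap, and a log2 fold change of 1.12 (SE 0.386) had an edgeR adjusted p of 0.0805, although it passed with no filter on low counts (adjusted p = 0.0134). LINC00422, at the read minimum, had 0.96 (SE 0.416, edgeR adjusted p = 0.145).

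**Figure D3:**
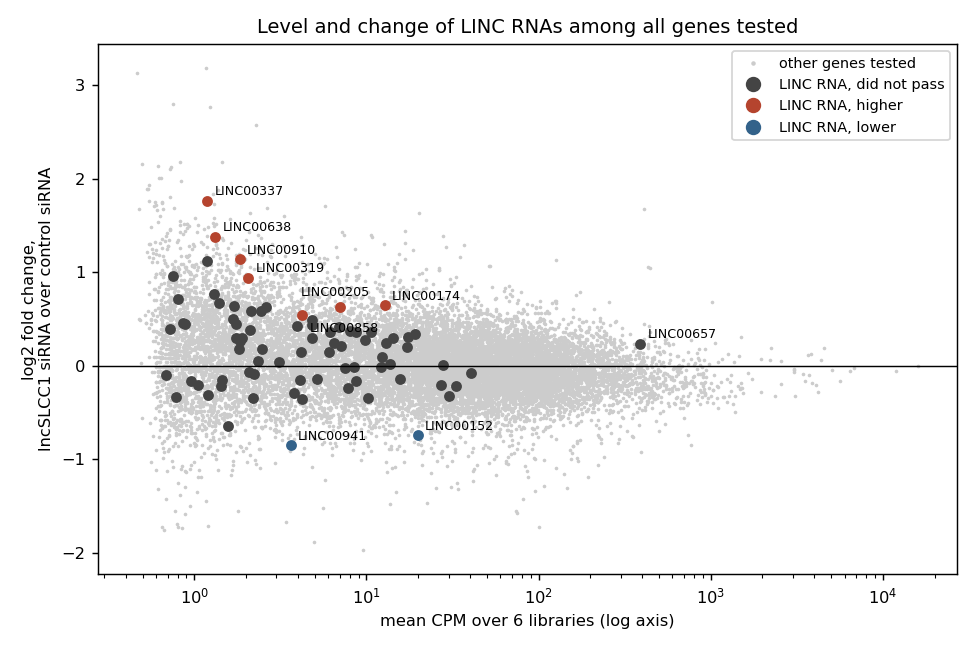
Log2 fold change of lncSLCC1 siRNA over control siRNA against the mean CPM over the 6 libraries on a log axis, for the 80 LINC RNAs (large points) and all other genes tested (small grey points). The 4 LINC RNAs past a 2-fold change all have a mean under 3 CPM, while LINC00657 stands alone near 390.1 CPM.

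LINC00847 came nearest to passing among the abundant ones. It was at 21.5, 21.8 and 20.7 CPM in the lncSLCC1 siRNA libraries, against 17.7, 17.4 and 15.7 CPM in the control siRNA libraries (log2 fold change 0.34, SE 0.105, edgeR adjusted p = 0.0593). The groups were separate, and with library totals in place of TMM scaling it passed (0.41, adjusted p = 0.0267). It overlaps ZFP62, a zinc finger gene that rose, at 39.2 ± 2.56 CPM with lncSLCC1 siRNA and 28.9 ± 3.56 CPM with control siRNA (0.44, SE 0.116, edgeR adjusted p = 0.0345). Reads of the overlap cannot be told apart without a stated strand setting. Of the 80, 45 overlap another RefSeq gene on either strand.

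On the lower side, LINC00984 had the largest change that did not pass, at 1.59, 1.34 and 0.701 CPM in the lncSLCC1 siRNA libraries, against 2.42, 1.37 and 2.02 CPM in the control siRNA libraries (log2 fold change -0.64, SE 0.327, edgeR adjusted p = 0.208). LINC00338, now SNHG20 and a host gene of small nucleolar RNAs, was at 8.57, 8.81 and 9.74 CPM in the lncSLCC1 siRNA libraries, against 13, 11.8 and 9.43 CPM in the control siRNA libraries (-0.34, SE 0.147, edgeR adjusted p = 0.146). LINC00888, now SNHG33 and of the same kind, had 0.09 (SE 0.134). Among the 21 tested genes whose symbols name them as host genes, which serve here only for comparison, 11 fell (52.4%), against 7.39% over all genes tested. Their median log2 fold change was -0.37. This class also takes in host genes of microRNAs, such as MIR22HG.

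RefSeq types 69 of the 80 as lncRNA and the other 11 as protein-coding genes, several of them encoding small proteins found after the LINC name was given. Of these 11, 0 were called by edgeR or limma-voom, and 2, LINC00672 and LINC00854, were higher at an unadjusted edgeR p under 0.05. DESeq2 also called 0, but it gave no adjusted p to LINC00514, LINC01125 and LINC01155, which have few reads. The shares over all genes tested were 6.46% called higher, 7.39% called lower and 15.3% higher at an unadjusted edgeR p under 0.05. With 11 genes, counts of 0 and 2 lie near these shares. Their median log2 fold change was -0.10, with 5 above 0, while that of the 69 was 0.25, with 7 higher (10.1%) and 2 lower (2.9%). No test of the difference between these lists was made.

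The best-known small proteins of this set sit in membranes. LINC00116 encodes mitoregulin (MTLN), a microprotein of the inner mitochondrial membrane, and was at 8.90, 6.96 and 5.69 CPM in the lncSLCC1 siRNA libraries, against 11.2, 8.79 and 5.53 CPM in the control siRNA libraries (log2 fold change -0.24, SE 0.251, edgeR adjusted p = 0.556). LINC00493 encodes SMIM26, a mitochondrial protein, and was at 28.1, 24.3 and 28.4 CPM in the lncSLCC1 siRNA libraries, against 41.0, 33.2 and 26.7 CPM in the control siRNA libraries (-0.32, SE 0.152, edgeR adjusted p = 0.18). In both the groups overlap, and control siRNA library 1 is the highest and control siRNA library 3 the lowest of the controls. LINC00998 encodes SMIM30, a membrane protein of the endoplasmic reticulum, and was at 20.5, 16.0 and 18.3 CPM in the lncSLCC1 siRNA libraries, against 13.5, 19.8 and 14.5 CPM in the control siRNA libraries (0.20, SE 0.162, edgeR adjusted p = 0.437). LINC00094, now BRD3OS, had 0.31 (SE 0.145, edgeR adjusted p = 0.175). LINC00984, now INAFM2, had -0.64 (SE 0.327), the lowest value of the set. The others, beside LINC00672 and LINC00854, were LINC00176 at -0.15 (SE 0.174), LINC01155 at -0.21 (SE 0.291), LINC01125 at 0.39 (SE 0.443) and LINC00514 at -0.10 (SE 0.424).

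Divergent transcription, in which a non-coding RNA and a messenger RNA start back to back from shared open chromatin, was examined at 11 LINC RNAs whose RefSeq start lay within 1000 bases of that of a protein-coding gene on the other strand. Of these 11, 2 rose, LINC00337 and LINC00205. Of their 11 partners, 0 rose and 1 fell by edgeR, by DESeq2 and by limma-voom, and 0 were higher and 3 lower at an unadjusted edgeR p under 0.05. These counts stand beside 6.46% higher and 7.39% lower over all genes tested, and with 11 pairs 1 call is near that background. In 4 of the 11 pairs both genes had a log2 fold change of the same sign, and in 0 pairs were both called. The partner that fell was C1orf174, at 46.8 ± 0.883 CPM with lncSLCC1 siRNA and 58.2 ± 3.89 CPM with control siRNA (log2 fold change -0.32, SE 0.0886, edgeR adjusted p = 0.043), while LINC01134, which starts 132 bases from it, had 0.77 (SE 0.327, edgeR adjusted p = 0.138).

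Neither gene of the remaining pairs passed. LINC00894, now EOLA2-DT, was at 0.63 (SE 0.22, edgeR adjusted p = 0.0815) and its partner, listed as CXorf40B, at -0.20 (SE 0.109). LINC01124 was at 0.58 (SE 0.246) and SP5, a WNT target gene and transcription factor, at -0.29 (SE 0.172). LINC01137, now LITATS1, was at 0.18 (SE 0.234) and ZC3H12A, the gene of an RNase that degrades inflammatory messenger RNAs, at -0.38 (SE 0.12). LINC00909 and ZNF407 were both above 0, at 0.24 (SE 0.114) and 0.13 (SE 0.126). LINC00936 and ATP2B1, a plasma membrane calcium pump gene, were both below 0, at -0.16 (SE 0.31) and -0.16 (SE 0.139), as were LINC00685 and GTPBP6 at -0.29 (SE 0.209) and -0.26 (SE 0.107). LINC00893, now EOLA1-DT, was at 0.29 (SE 0.312) and its partner, listed as CXorf40A, at -0.07 (SE 0.132), and LINC00843 was at 0.26 (SE 0.296) and PARG, the gene of an enzyme that degrades poly(ADP-ribose), at -0.0045 (SE 0.114).

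**Figure D4:**
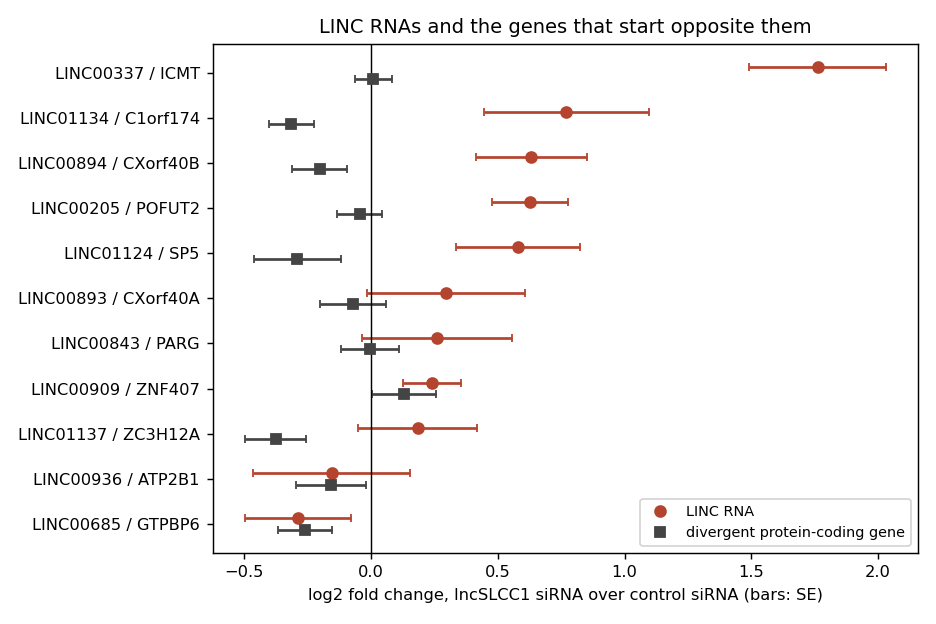
Log2 fold change of lncSLCC1 siRNA over control siRNA, with standard errors, for 11 LINC RNAs (red circles) and the protein-coding genes that start opposite them within 1000 bases (grey squares). LINC00337 stands at 1.76 above ICMT at 0.01, and LINC00205 at 0.63 above POFUT2 at -0.05.

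With the nearest protein-coding gene on each side, 105 pairs of a LINC RNA and a tested neighbour were formed, over 103 distinct neighbours. Of these neighbours 7 were called higher (6.8%) and 8 lower (7.77%), near the background of 6.46% and 7.39%, and their median log2 fold change was -0.04. In 56 of the 105 pairs (53.3%) both had the same sign, and the correlation of log2 fold changes across the pairs was 0.01, a description over pairs that share libraries. Of the 13 tested neighbours of the 9 called LINC RNAs, 1 was called, COL18A1, and 7 had the sign of their LINC RNA. TPST1, a tyrosine sulphotransferase gene, and KCTD7, beside LINC00174, had -0.15 (SE 0.142) and 0.13 (SE 0.146), and CCSER2 beside LINC00858 had 0.11 (SE 0.15).

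The distribution of changes was set beside that of other classes of gene names. Antisense-named genes, of which 220 were tested, had 19 higher (8.64%) and 5 lower (2.27%), 68.6% above 0 and a median log2 fold change of 0.16. Genes known only by a clone name, a class that includes pseudogenes, had 65 of 1651 higher (3.94%) and 49 lower (2.97%), with a median of 0.04. Genes that GENCODE types as protein-coding had 6.95% of 12426 higher and 8.28% lower, with a median of 0.0017. The upward lean of the LINC RNAs had a median near that of antisense-named genes, and no test of a difference was made.

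**Figure D5:**
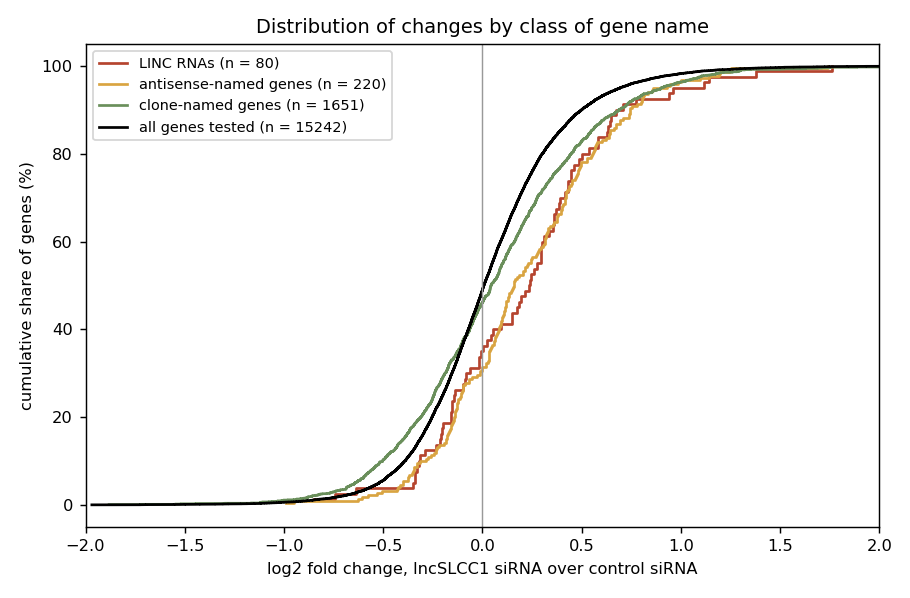
Cumulative share of genes, in percent, by log2 fold change of lncSLCC1 siRNA over control siRNA, shown from -2 to 2, for the 80 LINC RNAs, 220 antisense-named genes, 1651 clone-named genes and all 15242 genes tested. The curves of the LINC RNAs and the antisense-named genes lie to the right of that of all genes, with medians of 0.24 and 0.16 against 0.0072.

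Level, composition and length were set beside these changes. The log2 fold change correlated with the log2 of mean CPM at -0.27 over the 80 LINC RNAs and at -0.25 over all 15242 genes, with G and C content at 0.13 over 78 LINC RNAs and at -0.15 over 13643 genes, and with the log2 of length at -0.05 and 0.16 over the same genes. These are descriptions over genes that share libraries, and the part of level in the result was not tested. The 80 had a median level of 4.03 CPM against 22.4 CPM over all genes, and a median length of 2356 nt against 3209 nt. By library, the median deviation of the LINC RNAs from their own mean on the log2 scale was 0.075, 0.075 and 0.094 with lncSLCC1 siRNA and -0.006, -0.125 and -0.126 with control siRNA, so that control siRNA library 1 lay between the other controls and the lncSLCC1 siRNA libraries. With library-specific offsets for G and C content and length, 14 LINC RNAs were higher and 2 lower, against 7 and 2 without them. Calls over all 15242 genes also grew, to 1900 higher and 2772 lower from 984 and 1126. The median of the LINC RNAs was 0.24 in both fits.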

How the data were processed

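RNA of DLD-1 cells was sequenced in 6 libraries, 3 with lncSLCC1 siRNA and 3 with control siRNA. The authors deposited raw read counts per gene symbol, 1 table per library. The submitters' processing notes name TopHat2 2.0.11, TopHat, HTSeq and the builds hg19 and GRCh37, so no coordinates from GRCh38 are given. Neither the strand setting nor the annotation release is given in the sources used here. The summary lines of HTSeq entered neither library sizes nor tests. Per library they held 5.42% to 7.58% of reads with no feature, 8.83% to 10.1% ambiguous reads and 12.8% to 13.8% alignments that were not unique, so reads shared by near-identical copies are incompletely counted.

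Counts were tested with edgeR 4.0.16 (R 4.3.3): quasi-likelihood test, TMM scaling, default expression filter, no covariate, all 6 libraries. Of 56638 symbols 15242 were tested, with all 80 LINC RNAs among them, and an adjusted p under 0.05 (Benjamini-Hochberg over all genes tested) was called. CPM used TMM library sizes, and standard errors were the log2 fold change over the root of F. The biological coefficient of variation was 10.9%. DESeq2 1.42.0 and limma-voom (limma 3.58.1) were alternatives, with other scalings, filters, offsets, read minimums and left-out libraries. The fits were tested on simulated data with the same spread in both groups and with changes only in well-covered genes. That test therefore does not cover LINC RNAs with few reads or the wider spread between the control siRNA libraries. Current names and promoters came from RefSeq (GRCh38.p14), by symbol for 49 LINC RNAs and by synonym for 31, and lengths and G and C content from GENCODE for 78. The transcript used was the longest in GENCODE's basic set, or the longest of all where that set held none for the gene.

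Named were RP11-400N13.2, each LINC RNA called, the 10 with the highest mean CPM, the 5 with the largest change each way, the 3 on each side of the read minimum, those on the role lists and the nearest protein-coding neighbours of those called, with some genes not reported here. LINC00847's overlapping gene, the copy of LINC00152, the divergent pairs and others named with values were chosen after their values were seen. The LINC RNAs and lists were chosen with earlier results of these data known.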

Additional observations from a re-analysis of the deposited data

How the results depend on the processing

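The counts of LINC RNAs called stayed at 7 higher and 2 lower with DESeq2 size factors, a mean of at least 1 CPM, limma-voom and robust empirical Bayes, and were 6 and 2 with DESeq2 and 8 and 2 with library totals. Library totals moved the median of all genes from 0.0072 to 0.0765 and that of the LINC RNAs to 0.31, and 63.9% of all calls were then higher, against 46.6%. With no low-count filter 1600 genes were higher, and the LINC RNA calls were 7 and 2, with LINC00672 gained and LINC00858 lost. With G and C content and length offsets, 1900 genes were higher and 2772 lower, 14 LINC RNAs were higher and LINC00963 was at -0.0656. At an adjusted p under 0.01, 251 genes were higher and 327 lower, and 2 LINC RNAs were higher and 0 lower. With a minimum of 30 reads, 83 tested LINC RNAs gave 7 higher and 2 lower, and with 120 reads 66 gave 5 and 2. Leaving out 1 library gave 213 to 2112 genes higher and 244 to 2431 lower, both highest without control siRNA library 1 and lowest without lncSLCC1 siRNA library 3, and 1 to 17 LINC RNAs higher and 0 to 4 lower, with medians of 0.20 to 0.25. In these fits, among the 34 LINC RNAs followed singly, 4 that did not pass changed sign: LINC00899 ran from -0.0425 to 0.064, LINC00514 from -0.6361 to 0.1325, LINC00963 from -0.0676 to 0.0999 and LINC00116 from -0.4729 to 0.0137. The labels do not say whether replicate numbers pair the libraries. Deviations of same-numbered libraries correlated at 0.094, 0.001 and -0.016, and those of other pairs at -0.085 to 0.102. These values show no sign of pairing but cannot exclude it. With the replicate block 993 genes were higher and 1059 lower, and 7 LINC RNAs higher and 2 lower. LINC00858 was then lost (edgeR adjusted p = 0.0621) and LINC00672 gained (edgeR adjusted p = 0.0357). The cause of these shifts was not tested. The 36 LINC RNAs under 3 CPM had 4 calls, against 13.8% called over all genes tested.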

Other observations

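Of the 534 LINC symbols under 60 reads, 3 passed the expression filter, LINC00449, LINC01121 and LINC00444. LINC00449 was at 0.664, 0.894 and 0.779 CPM in the lncSLCC1 siRNA libraries, against 0.0712, 0.390 and 0.455 CPM in the control siRNA libraries, a log2 fold change of 1.30 (SE 0.481) that did not pass (edgeR adjusted p = 0.0982). LINC01121 had -0.06 and LINC00444 0.00. None of the 3 was called by edgeR or limma-voom, and 1 had an unadjusted edgeR p under 0.05.

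Among 26 well-known long non-coding RNAs that do not carry a LINC name, 19 were tested, and 2 rose and 2 fell (10.5% each way, against 6.46% higher and 7.39% lower over all genes tested), with a median log2 fold change of 0.04. NEAT1, the scaffold of nuclear paraspeckles, rose to 595 ± 4.18 CPM with lncSLCC1 siRNA, against 493 ± 20.0 CPM with control siRNA (0.27, SE 0.0702, edgeR adjusted p = 0.0332). JPX, a regulator of X inactivation, was at 16.8 ± 1.95 CPM with lncSLCC1 siRNA and 11.5 ± 2.16 CPM with control siRNA (0.55, SE 0.157, edgeR adjusted p = 0.046). H19, an imprinted RNA, fell to 122 ± 5.91 CPM with lncSLCC1 siRNA, against 212 ± 25.5 CPM with control siRNA (-0.80, SE 0.0972, edgeR adjusted p = 0.00117). PVT1 fell to 9.10 ± 0.416 CPM with lncSLCC1 siRNA, against 13.5 ± 1.94 CPM with control siRNA (-0.56, SE 0.137, edgeR adjusted p = 0.0267). MALAT1, of nuclear speckles, was at 162, 166 and 169 CPM in the lncSLCC1 siRNA libraries, against 99.2, 127 and 149 CPM in the control siRNA libraries, and did not pass (0.41, SE 0.128, edgeR adjusted p = 0.0619).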
